A study of Mus musculus with 9 samples.

Results

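The expression of 58 genes of mitosis and chromosome segregation was followed in dendritic cells (DCs) with and without Gnas, the gene of the stimulatory G protein subunit Gαs. The genes were chosen by symbol, with earlier results of these data known. The list they come from holds the mitotic cyclins, kinases, checkpoint proteins, motors, kinetochore, condensin and cytokinesis proteins and a pair of transcription factors. All 58 were found among the 30588 genes of the deposited table. Because of this choice, shares of the 58 set beside those of all tested genes are descriptive and not an independent test. Bone marrow of C57BL/6J mice of both sexes was cultured for 6 days with GM-CSF, the growth factor that drives myeloid precursors toward DCs, and cells carrying CD11c, a surface integrin of DCs, were taken with magnetic beads, with no further treatment. The WT group held 5 libraries (replicates 3 to 7) and the ΔGnas group, labelled GNAS_KO, held 4 (replicates 3, 4, 6 and 7), from as many mice as the design text gives. In the ΔGnas mice, floxed Gnas is removed by a Cre recombinase under the CD11c promoter. Some Gnas mRNA remains, which the authors put down to a leaky Cre. At what point of the culture the gene is lost was not tested. Whether the WT mice carried Cre or a floxed allele, and the age of the mice, is not given in the sources used here.

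Cells pass through mitosis by a fixed order of steps. Cyclin B with the kinase Cdk1 starts it, condensin packs the chromosomes, kinetochores tie them to spindle microtubules, the spindle assembly checkpoint holds the cell until all are tied, the anaphase promoting complex then releases separase to part the sister chromatids, and the central spindle guides the cut between the daughter cells. Most of the genes for these proteins are transcribed together, late in the cycle, by MuvB complexes with B-Myb and FoxM1, so their mRNA is known as a mark of dividing cells. GM-CSF cultures of bone marrow start from dividing precursors and lead to DCs that have mostly left the cycle. In bulk RNA, more cells in division and more of these mRNAs per dividing cell cannot be told apart.

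Levels are given in TPM (transcripts scaled by length and by library), which add up to the same sum in each library, and library values are listed for WT replicates 3, 4, 5, 6 and 7 and then for ΔGnas replicates 3, 4, 6 and 7. Gnas itself had 532, 415, 404, 407 and 432 TPM in the WT libraries and 47.98, 63.6, 53.4 and 58.1 TPM in the ΔGnas libraries, so every library stood on the side of its label. Depth was 34215663 to 49368161 estimated counts per library. Some libraries stood apart. WT replicate 3 had 1.39% of its TPM in mitochondrial transcripts against 5.85 to 8.54% in the other 8, and the largest normalization factor (1.21). WT replicate 7 had the smallest factor (0.825) and, although labelled female, 21.3 TPM of the Y-linked Ddx3y, which was at 23.9 to 41.9 TPM in libraries labelled male and at most at 0.16 TPM in the others labelled female. CD11c (Itgax, 88.3 to 279 TPM in WT and 331 to 415 TPM in ΔGnas libraries) and the MHC class II gene H2-Ab1 (3530 to 5598 and 5379 to 5824 TPM) were high in every library, and both were called higher in ΔGnas.

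Mitotic genes were higher in ΔGnas DCs across every step of mitosis. Of the 58 genes, all of which passed the filter on low counts, 45 rose by edgeR's quasi-likelihood test with Benjamini-Hochberg adjustment over 11862 genes at an adjusted p under 0.05, against 5.41% of all tested genes that were called higher. None fell, against 4.15% of all tested genes, and none was lower at an unadjusted p under 0.05 or in DESeq2, which called 48 of the 58 higher against 8.03% of all tested genes. The called genes rose by log2 fold changes of 0.66 to 1.48, and 33 of them by over 2-fold, against 2.86% of all tested genes. The median log2 fold change of the 58 was 1.04, a fold of 2.06, beside -0.0043 over all tested genes. Securin, Pttg1, was alone in having a negative log2 fold change (-0.15, not called). Summed over the 58 genes, the level was 504 ± 81.9 TPM (SD, n = 5) in WT and 846 ± 147 TPM (SD, n = 4) in ΔGnas libraries. The count of 45 changed with the libraries used. It was 27 without ΔGnas replicate 4, 26 without ΔGnas replicate 7 and 20 without WT replicates 3 and 7 together (tried only after seeing the data), and the 33 over 2-fold became 18, 21 and 14. With all libraries kept, the 33 became 13 on log2(TPM + 1), a scale that understates the change of low genes.

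**Figure D1:**
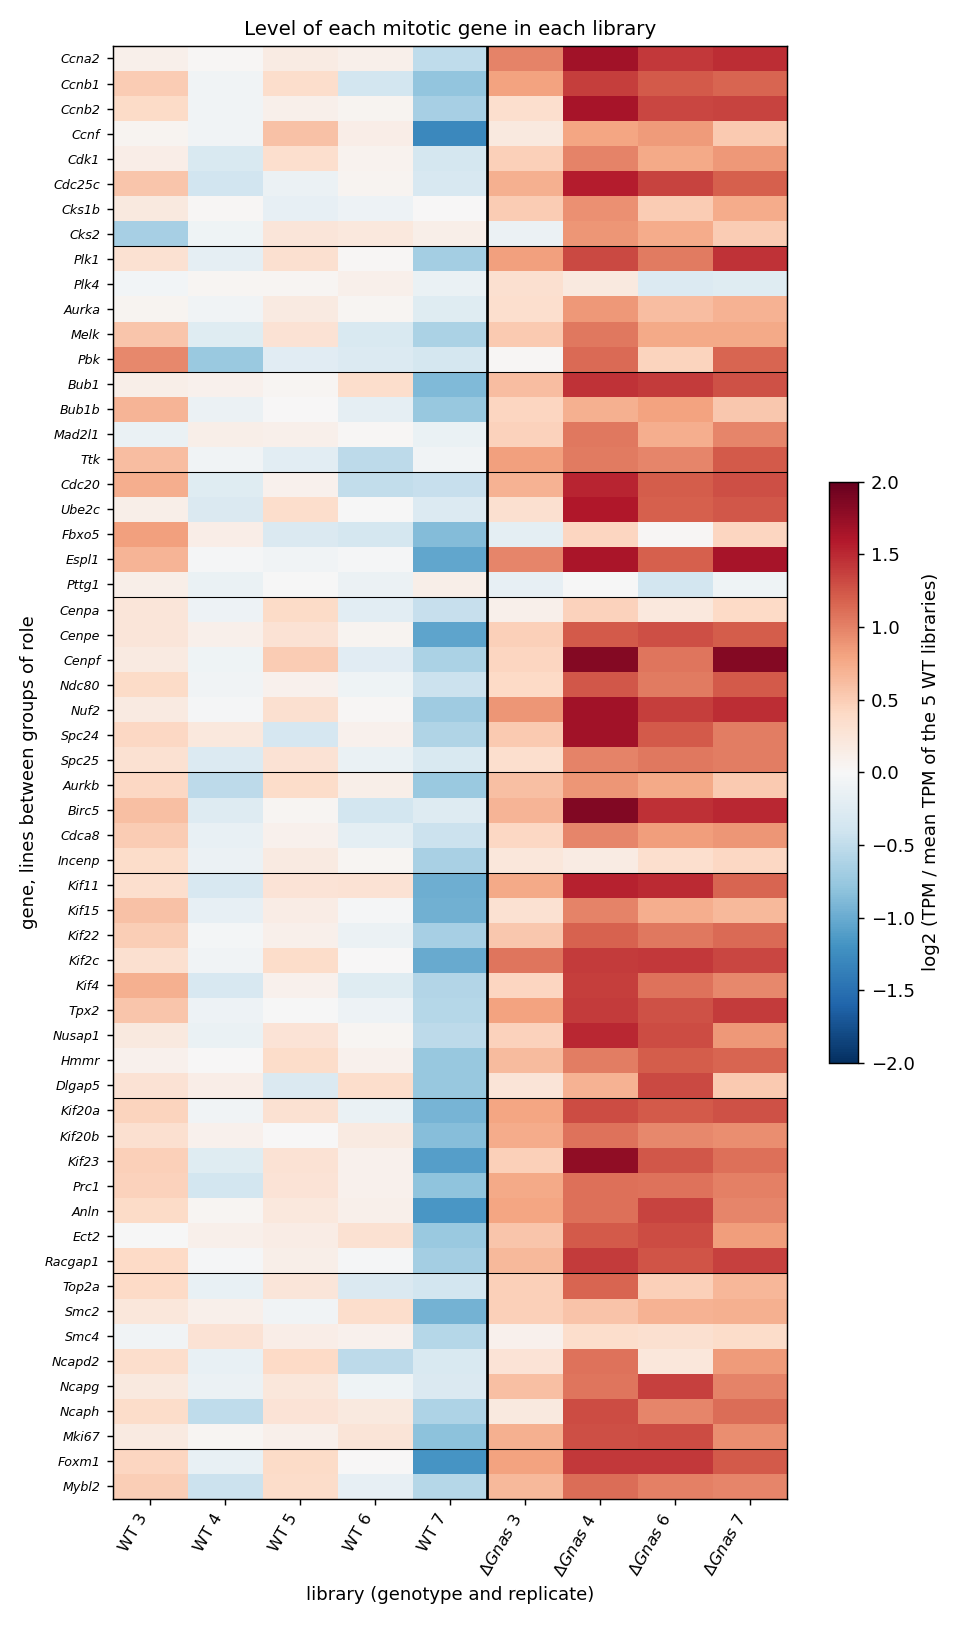
Each row is a gene and each column a library, and the colour is the log2 ratio of its TPM to the mean TPM of the 5 WT libraries, from blue (lower) through white to red (higher), with lines between groups of role. The 3 right-most columns (ΔGnas replicates 4, 6 and 7) are red in nearly all rows, ΔGnas replicate 3 is paler, WT replicate 7 is the bluest, and Plk4 and Pttg1 stay pale throughout.

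The libraries of each genotype did not all stand at the same height. The median over the 58 genes of the level relative to the WT mean was 1.28, 0.94, 1.13, 1.01 and 0.644 in the WT libraries and 1.41, 2.22, 2.08 and 2.01 in the ΔGnas libraries. ΔGnas replicate 3 was thus closest to WT. It had the lowest value of its genotype for 52 of the 58 genes and lay above every WT library for 38, while ΔGnas replicates 4, 6 and 7 did so for 55, 51 and 53 genes. Within WT, replicate 7 was lowest for 48 genes and replicate 3 highest for 34. These ranks changed with the scaling of the libraries. In CPM (counts relative to the library total) scaled by TMM factors, which correct for RNA composition, WT replicate 7 was lowest for 34 genes, WT replicate 5 was highest for 27 and WT replicate 3 for 17, whereas ΔGnas replicate 3 was lowest of its genotype for 56. Every ΔGnas library lay above every WT library in TPM for 37 of the 58 genes, against 6.92% of all tested genes. Between the highest and lowest library of a genotype, the TPM of a gene differed by a median of 2.11-fold in WT and 1.57-fold in ΔGnas. This spread, too, depends on the scaling. In CPM scaled by TMM factors, the median level relative to the WT mean was 1.08, 0.962, 1.12, 1.03 and 0.795 in the WT libraries. It was 1.31, 2.41, 2.11 and 2.12 in the ΔGnas libraries. The genotypes also differ in their number of libraries, and which of them varied more was not tested.

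The promoters of these genes are known for short shared motifs, and 6 promoters are shown: those of Mki67, Cdk1, Ccnb1, Nuf2 and Racgap1, which rose, and that of Fbxo5, which was not called. A CCAAT box is bound by the factor NF-Y, and the cell cycle homology region (CHR) is the element that MuvB complexes bind. RefSeq promoter windows (GRCm38.p6, 250 bases before to 50 after the start) were at hand for 47 of the 58 genes, with 49 windows in all, and not for Ccna2, Cdc25c, Pbk, Spc24, Aurkb, Incenp, Tpx2, Dlgap5, Kif20a, Smc4 and Foxm1. In capitals are CCAAT and TTTGAA or TTTAAA (CHR), read on both strands, so that ATTGG and TTCAAA are the same motifs on the other strand, and each line is 5′ to 3′ on the strand of the gene. The windows lie, all on the minus strand, at chr7:135716330-135716629 (Mki67), chr10:69352863-69353162 (Cdk1), chr13:100786437-100786736 (Ccnb1), chr1:169531415-169531714 (Nuf2), chr15:99651607-99651906 (Racgap1) and chr10:5805416-5805715 (Fbxo5).
Mki67: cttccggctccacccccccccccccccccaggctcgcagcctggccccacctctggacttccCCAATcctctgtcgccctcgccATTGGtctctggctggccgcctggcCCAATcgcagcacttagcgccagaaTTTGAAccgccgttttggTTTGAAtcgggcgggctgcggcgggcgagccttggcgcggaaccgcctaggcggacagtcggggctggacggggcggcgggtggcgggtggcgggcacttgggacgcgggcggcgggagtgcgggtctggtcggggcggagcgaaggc
Cdk1: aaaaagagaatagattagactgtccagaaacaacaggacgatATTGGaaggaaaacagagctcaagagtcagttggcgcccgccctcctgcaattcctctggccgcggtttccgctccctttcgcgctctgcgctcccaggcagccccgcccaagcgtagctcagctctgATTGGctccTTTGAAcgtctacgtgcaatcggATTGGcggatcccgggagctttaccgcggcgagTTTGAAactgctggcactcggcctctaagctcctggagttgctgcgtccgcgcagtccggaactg
Ccnb1: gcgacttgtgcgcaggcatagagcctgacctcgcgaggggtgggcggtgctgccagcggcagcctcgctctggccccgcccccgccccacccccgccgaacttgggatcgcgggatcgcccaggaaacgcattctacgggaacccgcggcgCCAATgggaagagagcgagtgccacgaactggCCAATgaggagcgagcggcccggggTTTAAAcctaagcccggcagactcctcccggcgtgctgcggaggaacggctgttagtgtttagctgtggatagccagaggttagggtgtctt
Nuf2: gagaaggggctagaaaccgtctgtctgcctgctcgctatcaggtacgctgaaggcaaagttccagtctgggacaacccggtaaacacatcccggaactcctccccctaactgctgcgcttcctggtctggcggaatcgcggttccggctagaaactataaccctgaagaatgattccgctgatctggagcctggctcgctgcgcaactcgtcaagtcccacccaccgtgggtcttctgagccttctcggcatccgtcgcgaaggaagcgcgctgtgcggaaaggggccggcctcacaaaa
Racgap1: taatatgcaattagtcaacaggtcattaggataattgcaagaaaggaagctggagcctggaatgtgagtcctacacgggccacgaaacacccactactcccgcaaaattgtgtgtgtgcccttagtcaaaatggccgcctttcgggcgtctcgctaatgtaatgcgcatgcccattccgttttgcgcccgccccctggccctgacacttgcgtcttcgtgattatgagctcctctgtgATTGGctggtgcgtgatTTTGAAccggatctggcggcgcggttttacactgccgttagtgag
Fbxo5: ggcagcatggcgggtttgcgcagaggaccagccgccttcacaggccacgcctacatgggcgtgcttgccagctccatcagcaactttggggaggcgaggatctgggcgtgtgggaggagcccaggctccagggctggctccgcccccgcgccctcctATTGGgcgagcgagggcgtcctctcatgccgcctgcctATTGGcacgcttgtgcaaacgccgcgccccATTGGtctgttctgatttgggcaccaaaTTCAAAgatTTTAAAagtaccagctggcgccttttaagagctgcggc

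Mki67 and Cdk1 had 3 CCAAT and 2 CHR matches each, Ccnb1 had 2 and 1, and Racgap1 had 1 of each. Nuf2, a gene with one of the smallest p-values of the list, had neither. Fbxo5 had 3 CCAAT and 2 CHR matches, as many as Cdk1. Over the 49 windows, CCAAT was found in 71.4%, against 37.4% of all 32851 promoters and 37.5% of those of tested genes, and CHR in 81.6%, against 27.6% and 19.3%. Both together were in 67.3%, against 10.7% and 7.54%. The matches lay at a median position of -68 (CCAAT) and -17 (CHR) relative to the start. An E2F motif was taken as the letters TTGGCGC, or with other middle letters the runs TTCGCGC, then as further forms TTCCCGC, and as the last form TTGCCGC, on either strand. It was in 22.4% against 9.57% and 16.6%, and its match in Ccnb1 overlapped a CCAAT box. A forkhead motif, read as GTAAACA or with another first letter as ATAAACA on either strand, was in 6.12% against 7.97% and 4.95%, and Nuf2 was one of the 3 genes that held it. Among genes with a window, 26 of the 38 called higher and 5 of the 9 not called held both CCAAT and CHR. A match is a run of letters and not a measured binding site.

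Of the cyclins, Cdk1 and its partners, 6 of 8 genes rose. Ccna2, cyclin A2, which pairs with Cdk2 and Cdk1 through S phase and G2 (GRCm38 chr3:36564865-36572150, minus strand), had 7.599, 7.18, 7.92, 7.61 and 4.97 TPM in WT and 14.1, 22.5, 18.7 and 19.5 TPM in ΔGnas libraries. The genotypes did not overlap, the lowest ΔGnas library lay 1.78-fold above the highest WT library, and the log2 fold change of 1.44 ± 0.17 (SE) had the smallest p of the 58 genes (edgeR adjusted p = 0.00157). Ccnb1, cyclin B1, the activator of Cdk1 at the entry into mitosis (GRCm38 chr13:100778650-100786570, minus strand), had 10.9, 7.33, 9.82, 5.99 and 4.46 TPM in WT and 13.4, 19.997, 17.98 and 17.3 TPM in ΔGnas libraries. WT replicates 3 and 5 were its highest WT libraries and still lay below all ΔGnas libraries, with a log2 fold change of 1.21 ± 0.21 (edgeR adjusted p = 0.00739). Cdk1, the kinase that drives mitotic entry (GRCm38 chr10:69335146-69352938, minus strand), had 27.5, 20.4, 31.6, 26.2 and 19.7 TPM in WT and 35.1, 49.96, 42.4 and 45.6 TPM in ΔGnas libraries. It did not overlap either, with a smaller log2 fold change of 0.81 ± 0.16 (edgeR adjusted p = 0.0135). Cyclin B2, Ccnb2, rose by 1.30 ± 0.25 on the log2 scale, although ΔGnas replicate 3 (13.1 TPM) lay just under WT replicate 3 (13.5 TPM). Cdc25c, the phosphatase that switches Cdk1 on, and Cks1b, a small Cdk-binding protein, rose by 1.28 ± 0.26 and 0.68 ± 0.14. Ccnf, the F-box protein cyclin F, ranged from 1.19 to 4.38 TPM in WT and from 3.35 to 5.27 TPM in ΔGnas libraries, and Cks2, the second Cdk-binding protein, from 24.1 to 44.9 and from 34.9 to 69.9 TPM. Neither passed the test (edgeR adjusted p = 0.208 and 0.295), and both had overlapping genotypes.

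Among the mitotic kinases, Plk1, Aurka and Melk rose, and Plk4 and Pbk did not pass the test. Plk1, the polo-like kinase needed at centrosomes, kinetochores and the cleavage site (GRCm38 chr7:122159439-122169873, plus strand), had 4.17, 2.97, 4.23, 3.43 and 2.11 TPM in WT and 5.95, 8.45, 6.91 and 9.25 TPM in ΔGnas libraries. All ΔGnas libraries lay at least 1.41-fold above the highest WT library, with a log2 fold change of 1.22 ± 0.20 (edgeR adjusted p = 0.00677). Aurka, Aurora A of the spindle poles (GRCm38 chr2:172356190-172370535, minus strand), had 6.32, 5.82, 6.86, 6.22 and 5.16 TPM in WT and 7.69, 11.1, 9.28 and 9.79 TPM in ΔGnas libraries. Its log2 fold change of 0.66 ± 0.15 was among the smallest that were called (edgeR adjusted p = 0.0277), with no overlap between the genotypes. Melk, another kinase high in dividing cells, changed by 0.83 ± 0.20 with an overlap of WT replicate 3 (5.15 TPM) and ΔGnas replicate 3 (4.998 TPM). Pbk ranged from 1.51 to 4.92 TPM in WT, where replicate 3 was far above the rest, and from 2.59 to 5.68 TPM in ΔGnas libraries (edgeR adjusted p = 0.165). Plk4, the kinase that starts centriole duplication (GRCm38 chr3:40800019-40816883, plus strand), had 5.46, 5.84, 5.87, 6.103 and 5.21 TPM in WT and 7.09, 6.53, 4.704 and 4.82 TPM in ΔGnas libraries. Its log2 fold change was 0.01 ± 0.16 (edgeR adjusted p = 0.971). The ΔGnas libraries labelled male were above every WT library and those labelled female below every WT library, and Plk4 was the 1 gene of the 58 with an unadjusted p under 0.05 for an interaction of genotype and labelled sex (log2 difference 0.70, male minus female, unadjusted p = 0.039, edgeR adjusted p over 0.99), against 1.45% of all tested genes. With adjustment over all genes, 0 of the 58 had an interaction in edgeR, as in limma-voom, which also had Plk4 alone at an unadjusted p under 0.05. In edgeR, 0 of all 11862 tested genes had an adjusted interaction either. The count for the 58 therefore does not show that their change was the same in both sexes. WT replicate 7, whose Y-linked transcripts go against its label, was kept as female here. Without that library, 0 of the 58 had an interaction in edgeR as well.

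All 4 spindle assembly checkpoint genes of the list rose. Bub3 and Mad1l1, also checkpoint genes but counted below with cohesin, were not called (log2 fold change 0.18 and -0.26, edgeR adjusted p = 0.440 and 0.512). Bub1, a checkpoint kinase of the kinetochore (GRCm38 chr2:127801122-127831865, minus strand), had 2.98, 2.93, 2.81, 3.52 and 1.498 TPM in WT and 4.22, 7.46, 7.23 and 6.62 TPM in ΔGnas libraries. Its genotypes did not overlap, with a log2 fold change of 1.25 ± 0.25 (edgeR adjusted p = 0.0131). Mad2l1, which encodes Mad2, the protein that captures Cdc20 while kinetochores are free (GRCm38 chr6:66535390-66547220, plus strand), had 13.3, 15.8, 15.6, 14.8 and 13.3 TPM in WT and 20.1, 30.4, 24.1 and 28.6 TPM in ΔGnas libraries. The WT libraries were within 1.19-fold of each other, and all ΔGnas libraries lay above them, with a log2 fold change of 0.83 ± 0.17 (edgeR adjusted p = 0.0165). Ttk, the kinase Mps1 that starts checkpoint signalling, was low, at 0.66 to 1.45 TPM in WT and 1.66 to 2.22 TPM in ΔGnas libraries, and rose by 1.04 ± 0.25. Bub1b, BubR1, overlapped through WT replicate 3 (9.85 TPM, against 8.34 to 10.7 TPM in ΔGnas libraries), and its call (log2 fold change 0.68 ± 0.18, edgeR adjusted p = 0.0436) was the same in 8 of the 21 alternatives.

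**Figure D2:**
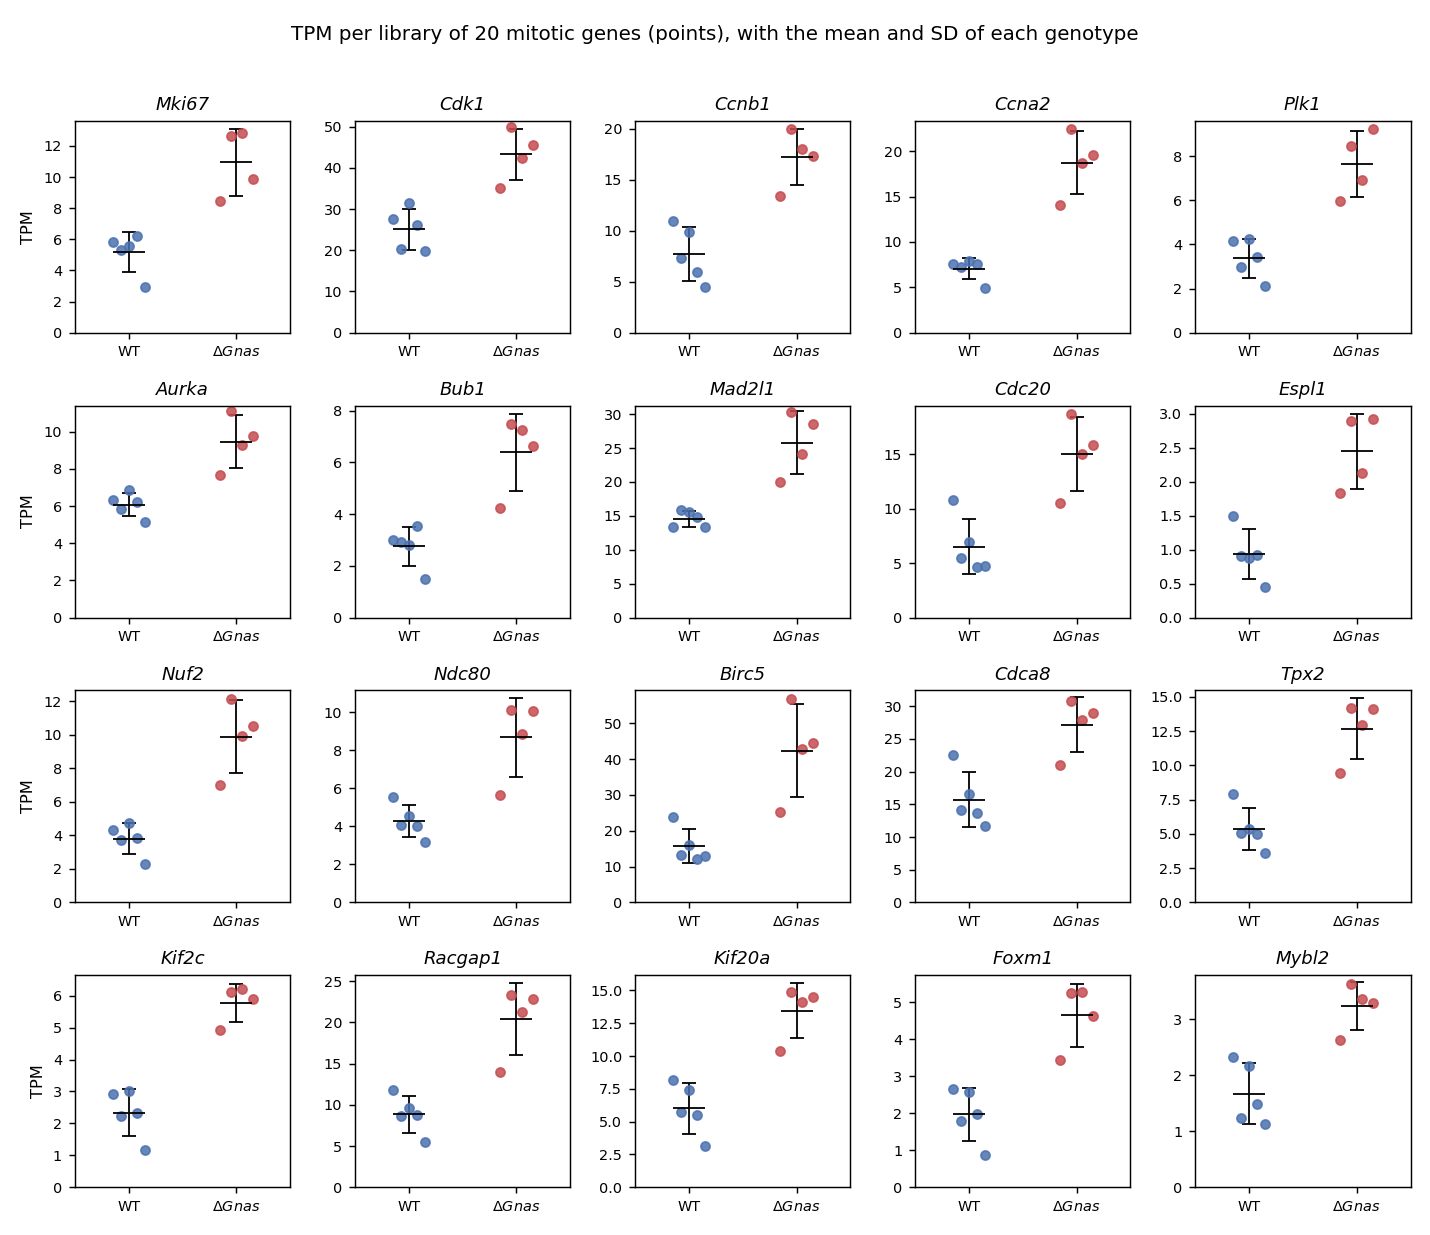
Points are libraries (replicates in order from left to right), horizontal lines the mean and bars the SD of the 5 WT (blue) and 4 ΔGnas (red) libraries, in TPM on axes that start at 0, for 20 genes. The lowest ΔGnas library is above the highest WT library for all but Cdc20 and Cdca8, where WT replicate 3 reaches 10.8 and 22.5 TPM.

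The genes of the anaphase promoting complex pathway and of sister separation divided. Cdc20, the activator of the complex and the target of the checkpoint (GRCm38 chr4:118432901-118437352, minus strand), had 10.8, 5.51, 6.93, 4.605 and 4.74 TPM in WT and 10.5, 18.7, 15.03 and 15.9 TPM in ΔGnas libraries. WT replicate 3 and ΔGnas replicate 3 overlapped and the other libraries lay clear of each other, with a log2 fold change of 1.27 ± 0.23 (edgeR adjusted p = 0.0101). Espl1, separase, the protease that cuts cohesin (GRCm38 chr15:102296266-102324357, plus strand), had 1.49, 0.912, 0.881, 0.915 and 0.453 TPM in WT and 1.84, 2.89, 2.12 and 2.93 TPM in ΔGnas libraries. It was low in both genotypes, without overlap, and its log2 fold change of 1.46 ± 0.29 was among the largest of the 58 (edgeR adjusted p = 0.0135). Pttg1, securin, which holds separase inactive (GRCm38 chr11:43420250-43426251, minus strand), had 43.1, 36.02, 39.2, 36.4 and 43.04 TPM in WT and 35.5, 39.4, 30.8 and 37.2 TPM in ΔGnas libraries. It was present at high levels in every library and did not pass the test (log2 fold change -0.15 ± 0.14, edgeR adjusted p = 0.579). Ube2c, the ubiquitin-conjugating enzyme of the complex, rose by 1.19 ± 0.25, with ΔGnas replicate 3 (19.2 TPM) inside the WT range (12.6 to 19.7 TPM) and the other ΔGnas libraries at 35.3 to 47.0 TPM. Fbxo5, Emi1, the inhibitor of the complex, was at 2.30 to 7.35 TPM in WT and 3.67 to 5.66 TPM in ΔGnas libraries, with its highest value in WT replicate 3 (edgeR adjusted p = 0.586).

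At the centromere and kinetochore 6 of 7 genes rose, among them all 4 subunits of the Ndc80 complex, the rod that holds microtubules. Nuf2 (GRCm38 chr1:169497934-169531464, minus strand) had 4.32, 3.73, 4.76, 3.85 and 2.31 TPM in WT and 6.99, 12.1, 9.89 and 10.5 TPM in ΔGnas libraries. The lowest ΔGnas library lay 1.47-fold above the highest WT library, with a log2 fold change of 1.42 ± 0.21 (edgeR adjusted p = 0.00434). Its partner Ndc80 (GRCm38 chr17:71496100-71526857, minus strand) had 5.56, 4.08, 4.55, 4.04 and 3.19 TPM in WT and 5.68, 10.1, 8.84 and 10.1 TPM in ΔGnas libraries. Here replicate 3 of both genotypes nearly met, and the log2 fold change was 1.06 ± 0.20 (edgeR adjusted p = 0.0111). Spc24 and Spc25, the subunits at the other end of the rod, rose by 1.21 ± 0.26 and 0.91 ± 0.19 without overlap. Cenpe, a kinesin that moves chromosomes to the spindle equator, rose by 1.13 ± 0.26 without overlap, and Cenpf, a large protein of the outer kinetochore, by 1.45 ± 0.35 with ΔGnas replicate 3 (1.35 TPM) inside the WT range (0.641 to 1.42 TPM). Cenpa, the histone H3 variant that marks centromeres, had the highest WT level of the 58 genes, at 43.4 to 77.3 TPM, and 64.2 to 82.1 TPM in ΔGnas libraries, a log2 fold change of 0.33 ± 0.15 that did not pass the test (edgeR adjusted p = 0.222).

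The chromosomal passenger complex corrects faulty attachments and later marks the central spindle, and 3 of its 4 genes rose. Birc5, survivin (GRCm38 chr11:117849251-117855743, plus strand), had 23.8, 13.1, 16.1, 12.2 and 13.1 TPM in WT and 25.1, 56.8, 42.9 and 44.5 TPM in ΔGnas libraries. Its log2 fold change of 1.48 ± 0.24 was the largest of the 58 (edgeR adjusted p = 0.00647), although ΔGnas replicate 3 was only 1.05-fold above WT replicate 3. Cdca8, borealin (GRCm38 chr4:124918465-124939311, minus strand), had 22.5, 14.2, 16.6, 13.7 and 11.6 TPM in WT and 21.1, 30.8, 27.9 and 28.9 TPM in ΔGnas libraries. The same pair of libraries overlapped, with a log2 fold change of 0.83 ± 0.16 (edgeR adjusted p = 0.0109). Aurkb, Aurora B, the kinase of the complex, was at 3.32 to 7.38 TPM in WT and 8.01 to 10.2 TPM in ΔGnas libraries, and its adjusted p of 0.0476 in edgeR was the closest to the threshold among the called genes, with the same call in 6 of the 21 alternatives. Incenp, the scaffold, was at 8.75 to 17.7 and 15.5 to 18.2 TPM and did not pass the test (log2 fold change 0.32 ± 0.13, edgeR adjusted p = 0.153).

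Of 9 spindle motors and assembly factors, 7 rose, all by over 2-fold. Tpx2, which brings Aurora A to spindle microtubules (GRCm38 chr2:152847964-152895321, plus strand), had 7.88, 5.04, 5.34, 4.98 and 3.63 TPM in WT and 9.44, 14.2, 12.9 and 14.1 TPM in ΔGnas libraries. No library overlapped, and the log2 fold change was 1.28 ± 0.18 (edgeR adjusted p = 0.00335). Kif2c, a kinesin that takes microtubule ends apart (GRCm38 chr4:117159639-117182639, minus strand), had 2.91, 2.23, 3.01, 2.33 and 1.16 TPM in WT and 4.91, 6.13, 6.201 and 5.88 TPM in ΔGnas libraries. The lowest ΔGnas value was 1.63-fold above the highest WT value, with a log2 fold change of 1.36 ± 0.22 (edgeR adjusted p = 0.00582). Kif11, the motor Eg5 that pushes spindle poles apart, rose by 1.32 ± 0.26, the chromosome-arm kinesins Kif22 and Kif4 by 1.04 ± 0.19 and 1.06 ± 0.27, Nusap1, which bundles microtubules, by 1.13 ± 0.23, and Hmmr, a microtubule-binding protein of the spindle, by 1.06 ± 0.20. Of these 5, Kif4 overlapped between the genotypes, and its call (edgeR adjusted p = 0.0378) was the same in 6 of 20 alternatives, against 21 of 21 for Kif22. Kif15, a motor that can stand in for Eg5, and Dlgap5, which stabilises kinetochore fibres, had log2 fold changes of 0.75 ± 0.25 and 0.79 ± 0.25 and missed the threshold (edgeR adjusted p = 0.0887 and 0.0834), with overlap in both.

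All 7 genes of the central spindle and cytokinesis rose, and none overlapped between the genotypes. Racgap1, which forms the centralspindlin complex with Kif23 (GRCm38 chr15:99620496-99651656, minus strand), had 11.8, 8.69, 9.63, 8.74 and 5.55 TPM in WT and 13.95, 23.4, 21.3 and 22.9 TPM in ΔGnas libraries. The log2 fold change was 1.25 ± 0.19 (edgeR adjusted p = 0.00479). Kif20a, a kinesin that carries the passenger complex to the central spindle (chromosome 18), had 8.21, 5.74, 7.43, 5.49 and 3.16 TPM in WT and 10.4, 14.9, 14.1 and 14.5 TPM in ΔGnas libraries. WT replicate 7 and ΔGnas replicate 3 were low within their genotypes, and the log2 fold change was 1.22 ± 0.21 (edgeR adjusted p = 0.00726). Kif23 itself rose by 1.29 ± 0.30, with 6.91 TPM in WT replicate 3 and 6.92 TPM in ΔGnas replicate 3. Prc1, which crosslinks the microtubules of the central spindle, rose by 1.04 ± 0.19, the kinesin Kif20b by 0.97 ± 0.21, Anln, which anchors the contractile ring, by 1.11 ± 0.24, and Ect2, the exchange factor that turns on RhoA at the equator, by 1.04 ± 0.24.

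Condensin and chromosome surface genes changed less evenly, with 4 of 7 called. Mki67, the gene of Ki-67, a coat of mitotic chromosomes and the usual marker of dividing cells (GRCm38 chr7:135689784-135716361, minus strand), had 5.85, 5.32, 5.56, 6.199 and 2.94 TPM in WT and 8.45, 12.7, 12.8 and 9.89 TPM in ΔGnas libraries. Without overlap, it rose by a log2 fold change of 1.12 ± 0.20 (edgeR adjusted p = 0.00918). Ncapg, a subunit of condensin I (GRCm38 chr5:45669919-45700546, plus strand), had 2.03, 1.64, 2.08, 1.69 and 1.46 TPM in WT and 2.69, 3.75, 4.596 and 3.55 TPM in ΔGnas libraries. The genotypes stood apart in every library, with a log2 fold change of 1.06 ± 0.20 (edgeR adjusted p = 0.0125). Ncaph, the kleisin of the same complex, rose by 1.004 ± 0.27 with overlap (edgeR adjusted p = 0.0421), a call made in 7 of 21 alternatives, and Top2a, the topoisomerase that untangles sister chromatids, rose by 0.76 ± 0.18, from 17.3 to 29.4 TPM in WT to 31.0 to 50.03 TPM in ΔGnas libraries. The core subunits Smc2 and Smc4, shared by both condensins, and Ncapd2 did not pass the test (edgeR adjusted p = 0.0617, 0.275 and 0.105). Smc2 was at 3.12 to 7.69 TPM in WT and 8.36 to 9.84 TPM in ΔGnas libraries, the 1 gene that did not overlap and yet was not called. Smc4 was abundant in both genotypes (21.8 to 39.4 and 34.5 to 41.6 TPM).

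Both transcription factors rose. Foxm1, the forkhead factor that acts with MuvB in G2 (GRCm38 chr6:128362967-128376146, plus strand), had 2.65, 1.79, 2.58, 1.99 and 0.874 TPM in WT and 3.45, 5.24, 5.27 and 4.64 TPM in ΔGnas libraries. No ΔGnas library fell into the WT range, and the log2 fold change was 1.29 ± 0.27 (edgeR adjusted p = 0.0157). Mybl2, the gene of B-Myb, which binds MuvB before FoxM1 does (GRCm38 chr2:163054687-163084688, plus strand), had 2.33, 1.23, 2.15, 1.49 and 1.12 TPM in WT and 2.62, 3.63, 3.35 and 3.295 TPM in ΔGnas libraries. It too had no overlap, with a log2 fold change of 0.99 ± 0.23 (edgeR adjusted p = 0.0247), a call made in 11 of 20 alternatives against 19 of 20 for Foxm1.

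**Figure D3:**
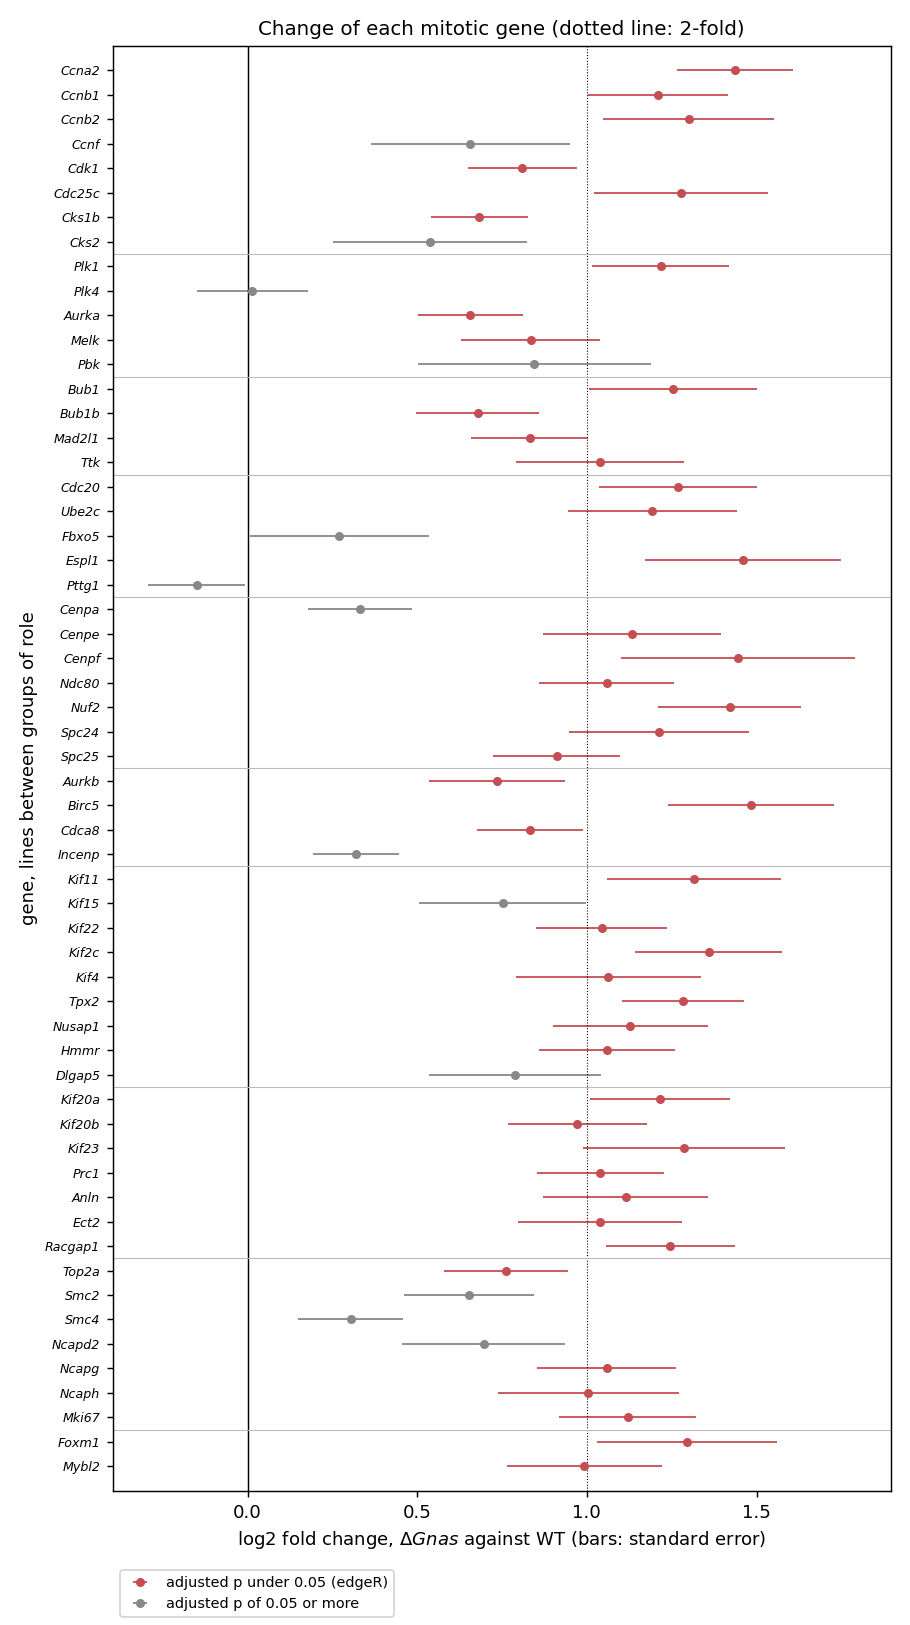
Points are log2 fold changes of the 58 genes (ΔGnas against WT, horizontal axis) and bars their standard errors, red for an edgeR adjusted p under 0.05 and grey otherwise, with a dotted line at 2-fold. Red points run from 0.66 to 1.48, and the grey points run from -0.15 (Pttg1) to 0.85 (Pbk).

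The calls were set beside the level in WT. Of the 14 with a WT mean over 10 TPM, 8 were called, and of the 44 at up to 10 TPM, 37 were called. Cenpa (59.6 TPM), Pttg1 (39.6 TPM), Cks2 (37.9 TPM) and Smc4 (32.4 TPM), the highest 4 by WT mean, were not called, and Cdk1 (25.1 TPM), next in order, was. These are counts within the list, and the difference between them was not tested. Among the called genes, the call was the same in the fewest alternatives for Aurkb, Kif4, Ncaph and Bub1b, followed by Melk (10 of 21), Cenpf (10 of 20), Ttk (11 of 20) and Mybl2. By role, the median log2 fold change ran from 0.76 (condensin, topoisomerase and chromosome surface) and 0.78 (passenger complex) to 1.14 (transcription factors) and 1.19 (anaphase promoting complex and separation).

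Other genes of the cell cycle were set beside the 58, in lists also chosen with earlier results of these data known. Of all tested genes, 5.41% were called higher and 4.15% lower. Whether the count of any list differs from these shares was not tested, and the last 2 lists are short for such a comparison. Of 76 further mitotic genes, 28 rose and none fell, nor was any lower at an unadjusted p under 0.05 or called lower by DESeq2 (38 higher), with a median log2 fold change of 0.71. The 4 with the smallest p were Shcbp1, a centralspindlin-binding protein (1.27 ± 0.19), Cep55, which recruits the machinery of abscission (1.34 ± 0.21), Cdca3, a protein of mitotic entry (1.30 ± 0.22), and Ska2, of the kinetochore SKA complex (1.52 ± 0.26). Of 35 genes of S phase, 15 rose and 1 fell, with a median of 0.56. Among them Rrm1 and Rrm2, the subunits of ribonucleotide reductase, rose by 0.83 ± 0.12 and 1.42 ± 0.21, Mcm5 of the replicative helicase by 0.92 ± 0.13 and Uhrf1, which keeps DNA methylation through replication, by 1.14 ± 0.20. Gins3, a subunit of the GINS complex of the same helicase, went the other way, with 17.8, 13.01, 9.47, 8.35 and 11.1 TPM in WT and 6.93, 3.17, 5.32 and 4.37 TPM in ΔGnas libraries (log2 fold change -1.27 ± 0.23, edgeR adjusted p = 0.00948), without overlap. Of 23 genes of the E2F, RB and MuvB families, E2f6 (0.65 ± 0.11) and E2f8 (0.72 ± 0.19), both repressor E2Fs, rose, and the median was 0.03. The last list held 27 genes of cohesin and the core of the anaphase promoting complex, with Bub3 and Mad1l1 of the checkpoint among them. Of these 27, 0 were called by edgeR, the exact test, DESeq2 or limma-voom, 2 had an unadjusted p under 0.05, and the median was -0.02.

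**Figure D4:**
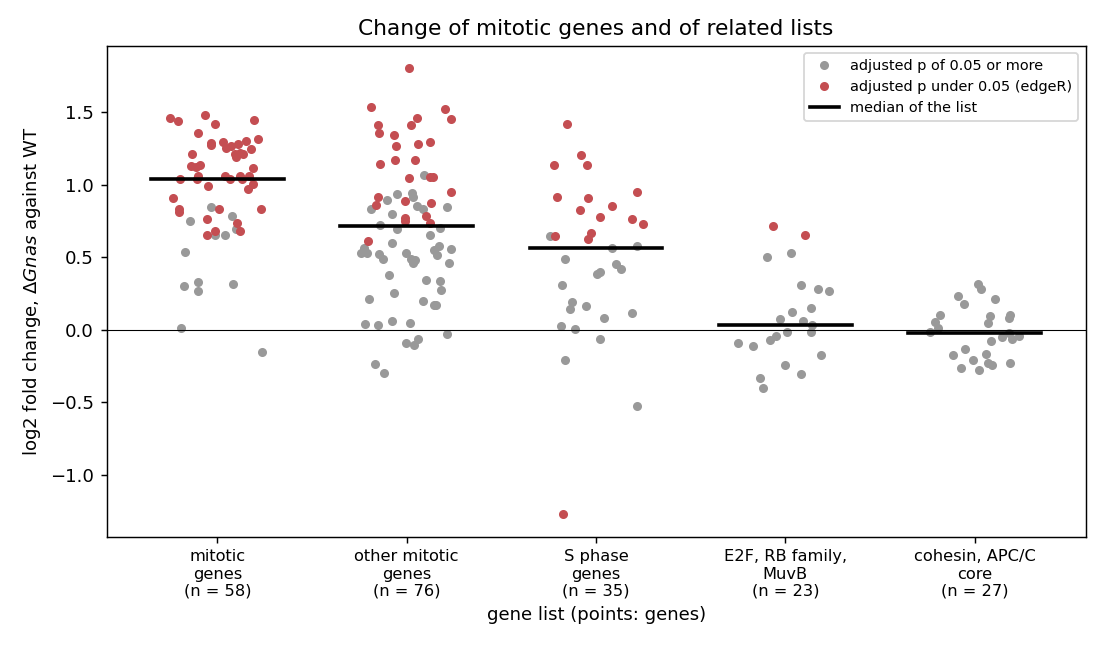
Points are genes (log2 fold change, ΔGnas against WT), red for an edgeR adjusted p under 0.05 and grey otherwise, and black lines are the median of each list. The medians run from 1.04 for the 58 mitotic genes through 0.71 and 0.56 for the other mitotic and the S phase genes to 0.03 and -0.02 for the last 2 lists, and Gins3 is the red point below 0.

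These counts changed with the libraries and the settings as well. The 28 further mitotic genes became 17 without WT replicate 3, 15 without WT replicate 4, 9, 12 and 8 without ΔGnas replicates 4, 6 and 7, and 5 without WT replicates 3 and 7 together. With all libraries kept, they were 15 on log2(TPM + 0.1) and 9 with a filter of 5 CPM, which left 34 of the 76 to test. The 16 changed S phase genes became 10 without WT replicate 4, 8 without ΔGnas replicate 4 or 7 and 6 without WT replicates 3 and 7 together. Of the E2F, RB and MuvB genes, 1 in place of 2 was called without any one of WT replicates 3, 4, 5 and 7 and ΔGnas replicates 4, 6 and 7, and also without WT replicates 3 and 7 together.

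Markers of other cells that such cultures can hold moved in different directions, and their part in the rise of the mitotic genes was not tested. Myeloid progenitor markers summed to 21.5 to 35.03 TPM in WT and 13.7 to 24.1 TPM in ΔGnas libraries, with 5 of 10 tested. Of these, 1 was lower (Kit, the stem cell factor receptor, at 7.88 to 20.3 and 3.41 to 6.33 TPM). The others were not called and went both ways, with log2 fold changes of 0.60 (Cd34), 0.74 (Cebpe), -0.31 (Myb) and -0.59 (Sox4). Mpo, Elane, Prtn3, Ctsg and Ms4a3 were too low to test, at up to 1.14 TPM in WT (Prtn3) and 1.79 TPM in ΔGnas libraries (Ms4a3). Among them, the granule proteases of promyelocytes had lowest values of 0, Elane in WT and Ctsg in both genotypes. Macrophage markers summed to 2756 to 3876 and 1258 to 1917 TPM, with 5 of 8 lower. Among these were the complement genes C1qa, C1qb and C1qc, with means of 507, 1003 and 489 TPM in WT. Their means in ΔGnas libraries were 112, 109 and 105 TPM. Mertk and Fcgr1 were lower as well (log2 fold change -0.63 and -1.32). Emr1, Csf1r and Cd68 were not called (0.01, 0.02 and 0.45), so the markers did not move together. DC markers had 2 of 12 higher and 2 lower. Itgax, the CD11c gene of the sort and of the Cre promoter, was higher without overlap (log2 fold change 1.09 ± 0.26, edgeR adjusted p = 0.0272), as was H2-Ab1 with overlap (0.44 ± 0.12), and Ccr7, a chemokine receptor of mature DCs (-1.43 ± 0.40), and Zbtb46, a DC transcription factor (-0.80 ± 0.18), were lower. Over 21 alternatives no direction changed, but the call was lost in 6 for Itgax, in 16 for H2-Ab1, in 12 for Ccr7 and in 6 for Zbtb46. For Itgax these were the fits without WT replicate 4 or 6 or ΔGnas replicate 4, 6 or 7 (edgeR adjusted p = 0.0602 to 0.0769) and the fit without WT replicates 3 and 7 (0.0832). Neutrophil markers summed to 210 to 716 and 619 to 1357 TPM, and all 6 tested had a positive log2 fold change (median 1.19), but edgeR and DESeq2 called 0 of 6 and 1 had an unadjusted p under 0.05. Markers of mast cells and basophils summed to 2.58 to 4.67 TPM in WT and 3.68 to 10.9 TPM in ΔGnas libraries. Of the 3 tested, edgeR called 0, with 1 at an unadjusted p under 0.05, and DESeq2 called 1. Markers of B and T cells summed to 2.34 to 4.00 TPM in WT and 4.12 to 9.29 TPM in ΔGnas libraries, without overlap of the sums. Of 3 tested, 1 was higher (Cd3g, edgeR adjusted p = 0.0489), and Cd3d and Cd79b were not called. Cd3g was low and overlapped, at 0.206 to 0.820 TPM in WT and 0.317, 6.82, 1.13 and 2.47 TPM in ΔGnas libraries.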

How the data were processed

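Stranded mRNA libraries of 5 WT and 4 GNAS_KO cultures were sequenced by the authors, who used BBDuk for trimming, Kallisto with the Ensembl transcriptome of GRCm38 for quantification and tximport to obtain gene values, and tested genotypes by the exact test of edgeR. The submitters' notes also name FastQC. The authors deposited TPM and estimated counts per gene for 30620 rows. Of these, 32 name no gene (0.0843 to 0.121% of the counts) and were left out. Each library's estimated counts and TPM differ by 1 constant factor, so the counts hold no gene length.

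Estimated counts were rounded to whole numbers. Genes over 1 CPM in at least 3 libraries were tested with TMM factors by edgeR 4.0.16 (glmQLFit and glmQLFTest, R 4.3.3) on the unpaired groups, with Benjamini-Hochberg adjustment over 11862 genes at 0.05. Standard errors were obtained from the log2 fold change and the F statistic. The step was tested on simulated data. The interaction test added labelled sex. Each library is taken as 1 mouse, and no source says whether the cultures were grown at the same time, so p-values measure the spread between these libraries.

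Alternatives were upper-quartile factors, the exact test, limma-voom (limma 3.58.1), DESeq2 1.42.0, no filter, a filter of 5 CPM, a replicate block, labelled sex, log2 TPM with a pseudocount of 1 or 0.1 in limma-trend, counts rescaled by transcript length, leaving out each library, and, added after seeing the data, leaving out WT replicates 3 and 7. That makes 21 in all, and 1 fewer for genes that a filter of 5 CPM removed.

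Members, role groups, comparison lists and marker lists were chosen with earlier results of these data known. The erythroid marker list is not reported here. All members are named. Given in full are Mki67, Cdk1, Ccnb1 and the 2 members of each role group with the smallest p, and of each comparison list up to 4 called genes by p and up to 2 that went the opposite way. Plk4 and Pttg1 were given in full after their values were seen. Positions are from the GENCODE annotation of GRCm38 and promoters from RefSeq (GRCm38.p6). Tables and plots were made with Python 3.11.15, pandas 2.3.3, NumPy 2.4.6 and matplotlib 3.10.9.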

Additional observations from a re-analysis of the deposited data

Results flagged for a closer look

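In the 116 groups formed by the 58 mitotic genes and the 2 genotypes, 8 had a library far from the others of its genotype, by a gap over the range that chance passes in about 1 group in 20, so about 5.8 would be expected by chance. In WT, replicate 7 was far below the rest for Ccna2 (4.97 TPM against 7.18 to 7.92 TPM), Cenpe (1.05 TPM against 2.26 to 2.67 TPM) and Mki67 (2.94 TPM against 5.32 to 6.20 TPM), and replicate 3 was far above the rest for Pbk (4.92 TPM against 1.51 to 2.16 TPM). In ΔGnas, replicate 3 was far below the rest for Cenpe (3.01 TPM against 5.03 to 5.29 TPM), Spc25 (8.92 TPM against 14.1 to 14.6 TPM), Kif20a (10.4 TPM against 14.1 to 14.9 TPM) and Smc4 (34.5 TPM against 40.5 to 41.6 TPM). These are the same 3 libraries that stood apart over the whole list in TPM. In CPM scaled by TMM factors, the median level relative to the WT mean was 1.08 in WT replicate 3, below WT replicate 5 (1.12). WT replicate 7 (0.795) and ΔGnas replicate 3 (1.31) stayed lowest of their genotypes. Whether the flags hold in CPM was not tested.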

How the results depend on the processing

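Over the 58 genes and 21 alternatives, 14 called genes kept their call throughout: Ccna2, Ccnb1, Plk1, Cdc20, Nuf2, Birc5, Cdca8, Kif22, Kif2c, Tpx2, Kif20a, Prc1, Racgap1 and Mki67. The 45 called genes were 26 to 48 when each library was left out in turn and 20 without WT replicates 3 and 7 (added after seeing the data), and between 32 and 48 under the alternatives that kept all libraries. The 33 over 2-fold were 18 to 36 and 14, and 13 on log2(TPM + 1), a scale that shrinks the change of low genes. The count of genes changed of all tested, 1134 in the main comparison, was 519 to 1586 with a library left out, 469 without WT replicates 3 and 7 and 1769 in DESeq2. The 28 other mitotic genes were 8 to 39 and 5, and 9 over 5 CPM and 15 on log2(TPM + 0.1). The 16 S phase genes were 8 to 18 and 6. The 2 E2F, RB and MuvB genes were 1 to 2 and 1, and 1 without a filter, with sex and on both log2(TPM) scales. Plk4 changed sign around 0, to -0.0059 with labelled sex, -0.077 without ΔGnas replicate 4, -0.069 without WT replicate 3 and -0.062 without ΔGnas replicate 3 (from -0.077 to 0.10 with each library left out), and -0.042 without WT replicates 3 and 7. The cause of these shifts was not tested. With a replicate block, 32 of the 58 genes, 15 other mitotic genes, 1 of the E2F, RB and MuvB genes and 1188 of all genes were called. Deviations from the genotype mean correlated at 0.29, 0.25 and 0.16 between libraries numbered 3, 6 and 7 and at -0.042 between those numbered 4, and WT replicates 4 and 7 correlated best with another number. As pairing was to be taken only where every pair passed 0.1 and no label gives a shared batch, the numbers were not used as pairs. Depth was no less than 34215663 counts. As these counts hold no gene length, the number of reads behind the genes under 1 TPM in WT is not known.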
